A study of Mus musculus with 20 samples.

Results

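Red cells keep their shape and carry their blood groups through a small set of membrane proteins, and 8 genes that encode them were described across sorted mouse blood cell populations: Sptb, Ank1, Epb42, Slc4a1, Add2, Rhag, Kel and Ermap. They were chosen by name, as genes of the red cell membrane skeleton and of blood group proteins, and each was read on the brightest of its probe sets by the mean over 20 Affymetrix Mouse Genome 430 2.0 arrays, among probe sets that the platform annotation assigns to that gene alone. All 8 were found, of 18193 genes measured in all, with 19 probe sets between them. The arrays hold 10 populations of C57BL/6 mice with 2 biological replicates each, and the RNA of 3000 cells was amplified in 2 cycles for every array. The populations are Ter119(+) erythroblasts (Erythroblast), lineage marker(-) cells (LinNeg), KSL cells, and 7 other mature populations: B220(+) B cells, CD4(+) T cells, CD8(+) T cells, NK1.1+ NK cells, CD3ε(+)NK1.1(+) NKT cells, Gr-1(+) neutrophils and Mac-1(+) monocytes/macrophages, called B, CD4T, CD8T, NK, NKT, Neutrophil and Monocyte below. KSL is a gate for immature cells positive for Kit and Sca-1 and negative for lineage markers. No population had a treatment or a mutation, and the tissue, the age of the mice and the animals behind each replicate are not stated by the labels, so p-values measure the spread between these samples.

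The membrane of a red cell lies on a mesh of spectrin tetramers tied together at short actin filaments. Ankyrin, with protein 4.2, fastens spectrin to the anion exchanger band 3, and the Rh proteins and several blood group carriers sit in the same or neighbouring complexes. These proteins are made while erythroblasts mature, and in humans the loss of spectrin, ankyrin, band 3 or protein 4.2 causes hereditary spherocytosis.

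Of the 8 genes, 6 matched an entry in the RefSeq promoter table of GRCm38.p6, which gives 250 bases before to 50 after the start it takes for a gene. Ank1 and Slc4a1 are named only. A promoter was searched on both strands for 4 words that the GATA factors of blood cells can bind (AGATAA, its form AGATAG with a last G, and, with T as the first base, TGATAA or else TGATAG) and for CCNCNCCC, a CACCC-type word that Krüppel-like factors can bind and that also matches GC boxes. A GATA word was in 6 of 6 promoters, against 30.3% of the promoters of 27025 genes. The CACCC-type word was in 2 of 6, those of Sptb and Add2, against 48.9%, and both words were in 2 of 6 against 10.3%. Its matches in Add2 were GGGCGCGG and GGGCGGGG. The shorter letters CACCC, read on either strand, also occur outside this word in the promoters of Add2, Rhag, Kel and Ermap. Below are the promoters of Rhag, Kel and Ermap, with differences of at least 3.53 between LinNeg and KSL on the log2 scale, and of Epb42, whose level in LinNeg was a small part of that in Erythroblast. They are written 5′ to 3′ along the gene's strand, at chr17:40810899-40811198 (plus strand), chr6:41704276-41704575 (minus), chr4:119189946-119190245 (minus) and chr2:121036828-121037127 (minus), with GATA words of either strand in capitals.
Rhag: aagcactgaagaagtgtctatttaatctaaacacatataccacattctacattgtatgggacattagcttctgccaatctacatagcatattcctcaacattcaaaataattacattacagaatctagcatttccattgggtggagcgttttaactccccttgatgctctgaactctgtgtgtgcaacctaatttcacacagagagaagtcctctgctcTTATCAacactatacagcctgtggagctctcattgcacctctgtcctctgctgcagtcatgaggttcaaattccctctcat
Kel: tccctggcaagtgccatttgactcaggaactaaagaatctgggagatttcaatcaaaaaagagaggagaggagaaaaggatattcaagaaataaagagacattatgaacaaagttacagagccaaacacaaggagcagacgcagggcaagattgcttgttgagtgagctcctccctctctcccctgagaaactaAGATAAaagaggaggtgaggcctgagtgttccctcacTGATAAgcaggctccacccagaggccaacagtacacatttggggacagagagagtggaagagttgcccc
Ermap: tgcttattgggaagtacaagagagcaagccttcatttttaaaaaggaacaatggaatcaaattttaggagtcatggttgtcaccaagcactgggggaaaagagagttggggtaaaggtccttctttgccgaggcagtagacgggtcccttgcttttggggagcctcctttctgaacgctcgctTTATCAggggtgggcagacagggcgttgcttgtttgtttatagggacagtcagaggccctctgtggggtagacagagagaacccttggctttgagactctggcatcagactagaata
Epb42: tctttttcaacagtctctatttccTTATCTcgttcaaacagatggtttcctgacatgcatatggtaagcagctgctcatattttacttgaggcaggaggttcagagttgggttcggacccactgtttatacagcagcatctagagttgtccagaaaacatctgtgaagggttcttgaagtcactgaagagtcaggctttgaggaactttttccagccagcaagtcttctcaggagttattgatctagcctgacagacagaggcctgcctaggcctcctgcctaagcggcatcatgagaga
The GATA word lies 31 bases before the start in Rhag, at 56 and 19 bases before it in Kel, 67 bases before it in Ermap and 226 bases before it in Epb42. In Add2 it lies 234 bases before the start, and in Sptb it begins at base 13 after it. For Rhag, Kel and Ermap the start taken here lies inside the RefSeq bounds of the gene. Distances from the outer start of these 3 genes therefore differ. The words are matches of letters, and no measurement of binding was made on these samples.

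All values below are deposited intensities on a linear scale, and differences are on the scale of log2(intensity + 6.75), which understates the change of dim genes. Array medians ran from 20.3 to 26.8, and the mean of each array without its extremes was 100, so a fall in RNA per cell over all genes is not seen. The 2 Erythroblast arrays had the highest 3′ to 5′ ratio of the Gapdh control, 5.86 and 6.10 on replicates 1 and 2, where the lowest over the arrays was 2.36. In Erythroblast the summed intensities of the markers of other cell types were 518 and 432 for megakaryocytes and platelets, the highest of these sums, with 2 of 6 markers, Gp9 and Vwf, called higher than in the other mature populations. They were 96.9 and 115 for B cells, 70.2 and 50.7 for T cells, 127 and 76.3 for NK cells, 122 and 88.0 for neutrophils, and 171 and 200.2 for monocytes and macrophages. The part of other cells in the Erythroblast levels was not tested. Erythroblast arrays carried Alas2, the first enzyme of heme synthesis in red cells, at a mean of 9412, against 11.5 in LinNeg, while the probe set used for Hba-a1, an alpha globin gene, was dim there (12.2 and 49.4). KSL arrays had summed stem and progenitor markers of 6412 and 8354, against 2211 and 2598 in LinNeg. Genes were tested if some population exceeded an intensity of 22.9 in its mean, which is the median over all deposited values. All 8 genes passed, and the number of populations above that level was 10 for Ank1, 9 for Sptb and Add2, 5 for Ermap, 4 for Slc4a1, Rhag and Kel, and 2 for Epb42. A gene that passes through Erythroblast alone had to be high there, so the counts of genes called give no support by themselves.

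All 8 genes were higher in Erythroblast than in the mean of the 7 other mature populations, and all 8 were higher in Erythroblast than in LinNeg. Calls needed both an adjusted p below 0.05 (limma, Benjamini-Hochberg over the 14063 genes tested) and a log2 difference of 1 or more in size. Against the other mature populations 17.6% of all genes tested were called higher, and against LinNeg 14.6%. The median log2 difference of the 8 was 7.73 against the other mature populations, where the median of all genes was -0.13, and 3.74 against LinNeg, where that of all genes was -0.19. Each of the 8 was also called higher in Erythroblast than in each of the other 9 populations one by one, as were 6.6% of all genes. With 1 array left out at a time this count was 7 or 8.

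Sptb encodes the beta chain of red cell spectrin. On probe set 1450556_at it had intensities of 903 and 653 in Erythroblast, 73.6 and 65.3 in LinNeg, and 19.7 and 28.9 in KSL, against 5.51 to 46.2 with a median of 33.1 over the 14 arrays of the other mature populations. Both Erythroblast arrays and, more narrowly, both LinNeg arrays lay above every other array. The difference of Erythroblast was 3.35 ± 0.51 (SE) from LinNeg (limma adjusted p = 1.7e-05) and 4.48 ± 0.39 from the other mature populations (adjusted p = 4.8e-09).

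Ank1 encodes ankyrin-1, the adaptor between spectrin and band 3. Probe set 1419421_at read 8219 and 6196 in Erythroblast, 319 and 608 in LinNeg, and 102 and 28.0 in KSL, against 26.0 to 74.7 with a median of 49.96 in the other mature populations. Erythroblast and LinNeg lay above all other arrays, and of the KSL replicates 1 lay above and 1 inside the range of the other mature arrays. Erythroblast minus LinNeg was 3.997 ± 0.45 (adjusted p = 3.1e-07), and Erythroblast minus the other mature populations was 7.02 ± 0.34 (adjusted p = 7.2e-13).

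Epb42 encodes protein 4.2, a relative of the transglutaminases without their enzyme activity, which binds band 3 and ankyrin. Probe set 1417337_at read 3671 and 3099.8 in Erythroblast, 30.9 and 67.4 in LinNeg, and 5.28 and 3.69 in KSL, against 0.246 to 15.4 with a median of 5.68 elsewhere. Of the 14 other mature arrays 0 had Epb42 above the median of that array, fewer than for any other of the 8 genes. The differences of Erythroblast were 6.00 ± 0.50 from LinNeg (adjusted p = 5.8e-09) and 8.05 ± 0.38 from the other mature populations (adjusted p = 5.1e-13).

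Slc4a1 encodes band 3, the exchanger of chloride for bicarbonate that serves carbon dioxide transport and anchors the skeleton. Probe set 1416464_at read 12243 and 8735 in Erythroblast, 11.7 and 79.6 in LinNeg, and 2.06 and 3.63 in KSL, against 1.63 to 90.9 with a median of 16.3 in the other mature arrays. The LinNeg arrays differed widely and both lay inside the range of the other mature arrays. Erythroblast minus LinNeg was 8.02 ± 0.80 (adjusted p = 6.8e-08), with 6.91 without LinNeg replicate 1 and 9.13 without LinNeg replicate 2. Erythroblast minus the other mature populations was 8.84 ± 0.60 (adjusted p = 1.4e-10).

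Add2 encodes beta-adducin, which caps actin filaments and recruits spectrin to them. Probe set 1431076_at read 1213 and 839 in Erythroblast, 90.7 and 77.8 in LinNeg, and 30.7 and 24.9 in KSL, against 14.4 to 50.4 with a median of 38.6 in the other mature arrays. LinNeg lay above all of these and KSL within them. The differences of Erythroblast were 3.48 ± 0.35 from LinNeg (adjusted p = 8.7e-08) and 4.66 ± 0.27 from the other mature populations (adjusted p = 1.0e-11).

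Rhag encodes the Rh-associated glycoprotein, which the Rh complex needs to reach the surface and which can conduct ammonia. Probe set 1419014_at read 2981 and 2580.2 in Erythroblast, 331 and 362 in LinNeg, and 24.1 and 23.4 in KSL, against 1.67 to 28.8 with a median of 9.58 in the other mature arrays. Erythroblast and LinNeg stood apart from each other and from all other arrays, and the replicates of each lay close. Erythroblast minus LinNeg was 2.98 ± 0.44 (adjusted p = 1.1e-05), and Erythroblast minus the other mature populations was 7.41 ± 0.33 (adjusted p = 2.7e-13).

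Kel encodes a zinc endopeptidase of the surface that in humans carries the Kell antigens. Probe set 1449057_at read 8288 and 5393 in Erythroblast, 316 and 364 in LinNeg, and 42.9 and 4.94 in KSL, against 3.46 to 41.3 with a median of 13.2 in the other mature arrays. LinNeg again lay between Erythroblast and all the rest, and KSL replicate 1 lay just above the other mature range and KSL replicate 2 near its low end. Erythroblast minus LinNeg was 4.27 ± 0.60 (adjusted p = 6.1e-06), and Erythroblast minus the other mature populations was 8.42 ± 0.46 (adjusted p = 4.2e-12).

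Ermap encodes erythroblast membrane-associated protein, a butyrophilin-like member of the immunoglobulin superfamily that in humans carries the Scianna antigens. Probe set 1418909_at read 10978 and 8264 in Erythroblast, 2911 and 2219 in LinNeg, and 172.8 and 31.1 in KSL, against 2.96 to 60.7 with a median of 15.0 in the other mature arrays. Its level in LinNeg stood nearer to that in Erythroblast than for any other of the 8 genes. Erythroblast minus LinNeg was 1.90 ± 0.59 (adjusted p = 0.011). That call was lost without LinNeg replicate 2 (1.71, adjusted p = 0.073) and without Erythroblast replicate 1 (1.70, adjusted p = 0.076). Erythroblast minus the other mature populations was 8.75 ± 0.45 (adjusted p = 2.0e-12).

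**Figure D1:**
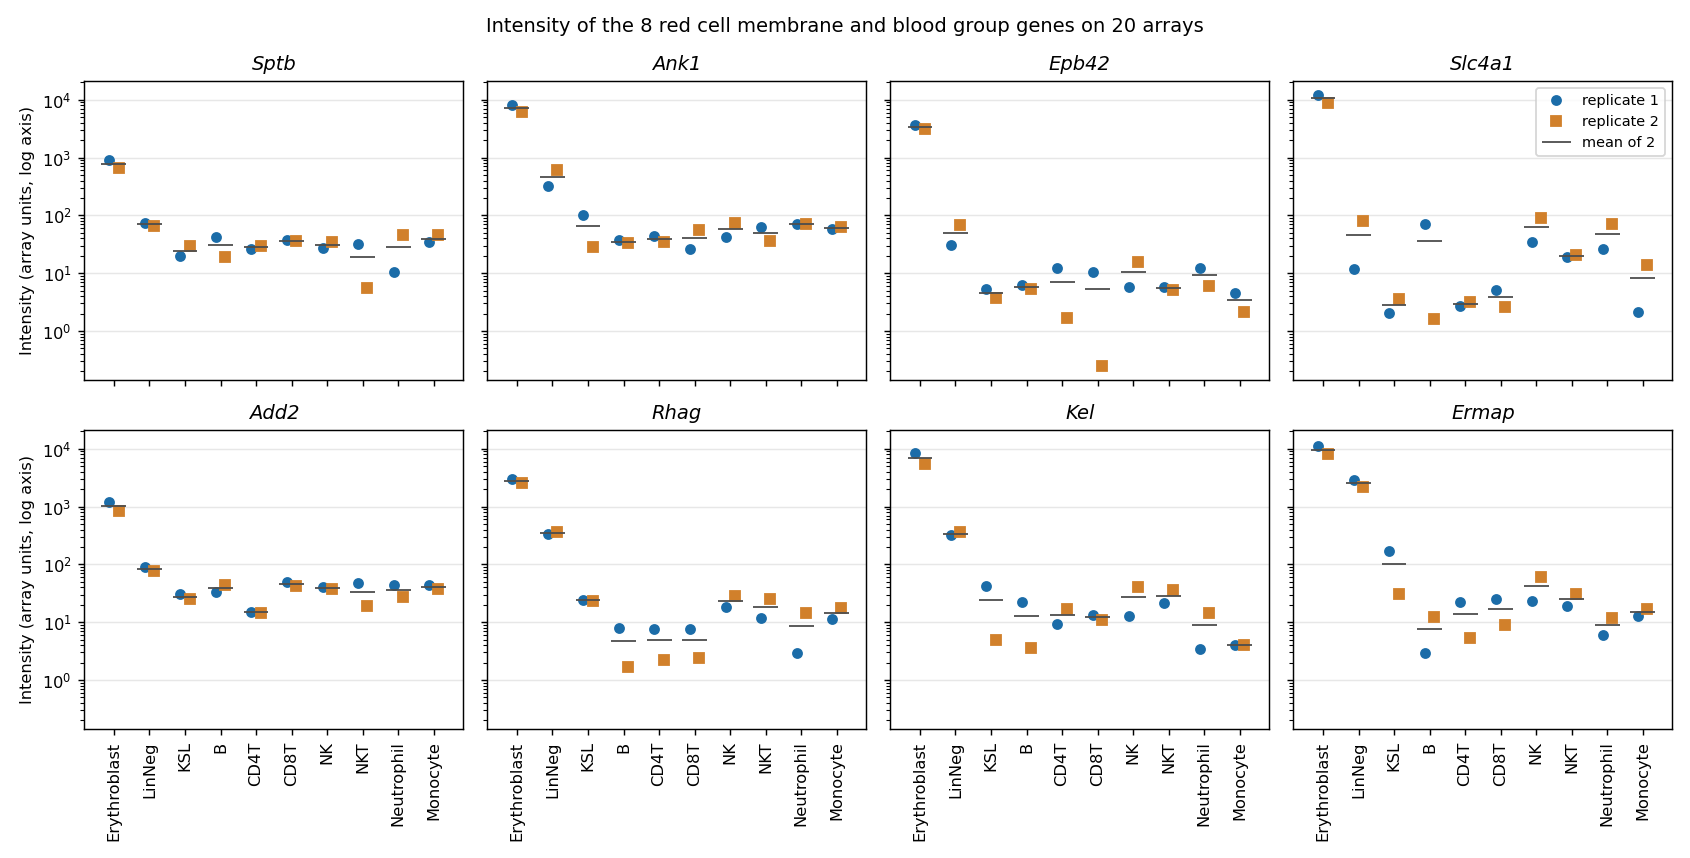
Deposited intensity (log scale) of the 8 genes on each array, with 1 panel per gene and the 10 populations along the horizontal axis; points are the 2 replicates and short lines their mean. Erythroblast is highest in all 8 panels, and Ermap in LinNeg, at 2911 and 2219, is the highest level of that gene outside Erythroblast.

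The 2 Erythroblast arrays differed in a common direction, with replicate 1 above replicate 2 for 8 of 8 genes. The ratio of replicate 1 to replicate 2 ran from 1.16 for Rhag to 1.54 for Kel, with a median of 1.36. Among the 2482 genes called higher in Erythroblast than in the other mature populations the median ratio was 1.08, and 60.2% were above 1.

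A second question is how the levels of these genes differ between the immature populations. In LinNeg 6 of 8 genes were called higher than in KSL, where 2.45% of all genes were called higher and 3.07% lower: Ank1, Epb42, Add2, Rhag, Kel and Ermap. The differences were 4.95 ± 0.59 for Ermap (adjusted p = 4.5e-05), 3.84 ± 0.60 for Kel (adjusted p = 0.00047) and 3.53 ± 0.44 for Rhag (adjusted p = 6.1e-05). Ank1 followed at 2.86 ± 0.45 (adjusted p = 0.00045), then Epb42 at 2.24 ± 0.50 (adjusted p = 0.0076) and Add2 at 1.40 ± 0.35 (adjusted p = 0.017). For Add2 the LinNeg mean was 3.03 times the KSL mean on the probe set used. On 1435287_at it was 8.14 times, with 77.9 and 83.6 in LinNeg and 15.5 and 4.296 in KSL. The other mature arrays had at most 12.7 there. On 1421975_a_at and 1451914_a_at it was 20.75 and 17.28 times, with at most 2.67 in KSL. The remaining probe set, 1450442_at, had 130.2 and 83.4 in LinNeg and 34.6 and 18.7 in KSL. These ratios were not tested. Sptb, with 1.31 ± 0.51 (adjusted p = 0.135), and Slc4a1, with 2.06 ± 0.80 (adjusted p = 0.13), were not called, though Slc4a1 passed without B replicate 1 (adjusted p = 0.049) or B replicate 2 (adjusted p = 0.047). The median over the 8 was 2.55, against -0.01 for all genes. LinNeg is a mixture, and in bulk RNA fewer cells of a type and less RNA per cell cannot be told apart.

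The KSL replicates decide part of these sizes. KSL replicate 1 exceeded KSL replicate 2 for Ermap, Kel and Ank1, and likewise for Klf1, the erythroid Krüppel-like factor (253 and 47.5), and Gata1, the erythroid GATA factor (183 and 89.97). Tfrc had 403 and 322 in KSL replicates 1 and 2. Some other erythroid genes ran the other way on these arrays: Hemgn had 605 and 877, Epor 33.4 and 46.9, and Car2 2926 and 3208. So did Sptb (19.7 and 28.9) and, at dim levels, Slc4a1 (2.06 and 3.63). Alas2 (1.76 and 0.996) and Hba-a1 (3.76 and 4.80) were dim on both arrays. Ermap differed by 6.07 without KSL replicate 1 and by 3.83 without KSL replicate 2. Kel differed by 4.89 without KSL replicate 1 and by 2.80 without KSL replicate 2, and Ank1 by 3.69 and 2.04 in the same order, so that Ank1 stood above Rhag (3.55) without KSL replicate 1. Rhag, with nearly equal KSL arrays, kept a difference of 3.47 to 3.60 when any 1 array was left out. Add2 missed the threshold when any 1 of the 4 LinNeg and KSL arrays was left out (adjusted p = 0.051 to 0.15), and Epb42 did so without KSL replicate 2 (2.14, adjusted p = 0.082) or LinNeg replicate 2 (1.75, adjusted p = 0.098).

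Markers of other cells moved between the same populations. Summed neutrophil markers were 70.4 and 1103 in LinNeg, against 43.1 and 52.8 in KSL, with 1 of 6 markers called higher. Summed NK markers were 933 and 1303 in LinNeg, against 599 and 505 in KSL, with 3 of 6 called higher, and 3 of 6 stem and progenitor markers were called lower in LinNeg. Summed T cell markers were 209 and 273 in LinNeg, against 53.98 and 24.96 in KSL, with 2 of 4 called higher. Summed monocyte and macrophage markers were 1736 and 1941 in LinNeg, against 904 and 419 in KSL (1 of 8 called higher), and megakaryocyte and platelet markers 1771 and 2595 in LinNeg, against 1795 and 1075 in KSL (1 of 6 called higher). Their part in the differences of the 8 genes was not tested. Klf1 was at 1890.4 in LinNeg and 150.1 in KSL, a difference of 3.99 ± 0.48.

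Against the other mature populations, LinNeg was called higher for 7 of 8 genes, where 14.9% of all genes were. Ermap stood highest at 6.84 (adjusted p = 8.8e-10), then Rhag at 4.43, Kel at 4.15, Ank1 at 3.02, Epb42 at 2.05, Add2 at 1.18 and Sptb at 1.14 ± 0.39 (adjusted p = 0.023). The call of Sptb was lost without either LinNeg array (adjusted p = 0.17 without replicate 1 and 0.0997 without replicate 2). Slc4a1, at 0.82 ± 0.60 (adjusted p = 0.30), was not called. KSL was called higher than the other mature populations for 1 of 8 genes, Ermap, at 1.89 ± 0.45 (adjusted p = 0.0021), where 15.4% of all genes were called higher. That call was lost without KSL replicate 1 (0.77, adjusted p = 0.27), so it rests on that array. Rhag differed by 0.90 ± 0.33 (adjusted p = 0.036), under the size threshold. The remaining 6 lay between -1.24 for Slc4a1 and 0.30 for Kel, and Slc4a1 was called lower in KSL without B replicate 2 (-1.47, adjusted p = 0.017).

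**Figure D2:**
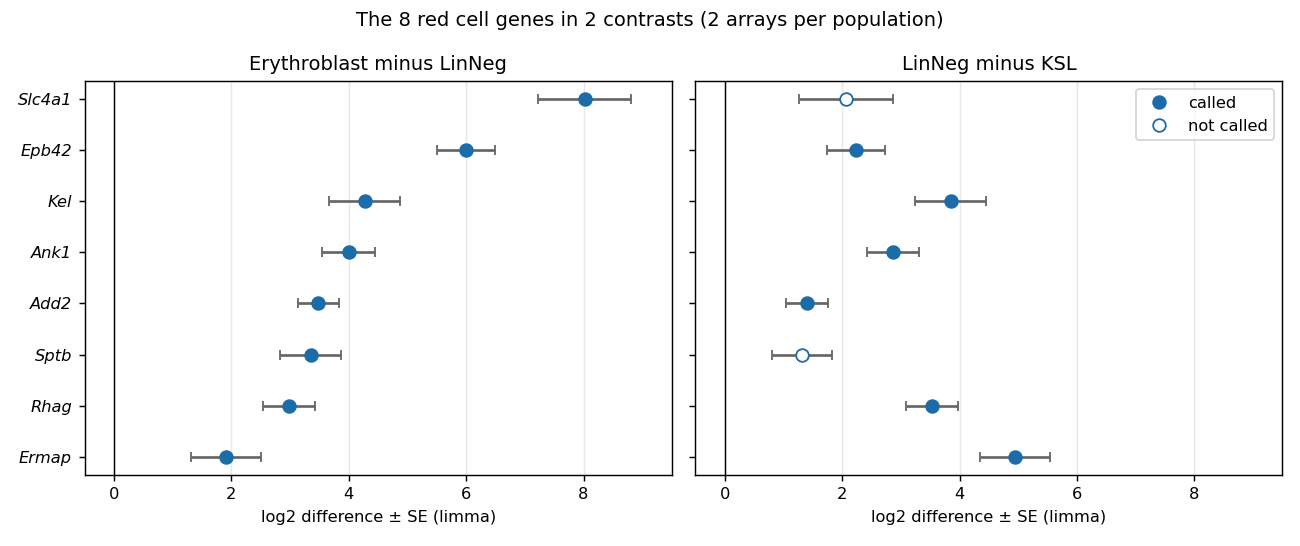
Differences on the log2(intensity + 6.75) scale with their SE for each of the 8 genes, Erythroblast minus LinNeg at left and LinNeg minus KSL at right; filled points were called and open points were not. Erythroblast minus LinNeg is smallest for Ermap, at 1.90, and LinNeg minus KSL is largest for Ermap, at 4.95, with Sptb and Slc4a1 not called.

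The LinNeg level as a share of the Erythroblast level differed widely between the genes. By mean intensity LinNeg held 26.7% of the Erythroblast level for Ermap, with 20.2% to 35.2% over the 4 pairings of arrays. Rhag followed with 12.5% (11.1% to 14.0%), and this range overlapped that of Ermap nowhere. Sptb (8.93%), Add2 (8.21%), Ank1 (6.43%) and Kel (4.98%) lay below, with ranges that overlapped their neighbours'. For Sptb and Add2 the mean in LinNeg was 69.4 and 84.3, beside 30.3 and 35.2 in the other mature populations. For Ank1 and Kel it was 463 and 340, beside 50.5 and 15.3. The LinNeg level of Sptb was not called above that of KSL. The part of background in these 4 shares was not tested, so their order is not settled. Epb42 had 1.45% (0.843% to 2.17%), and its range lay below those of the 6 genes above. For Slc4a1 the value was 0.435% (0.0957% to 0.911%). Its LinNeg level was not called above that of the other mature populations or of KSL, so this share cannot be told from background. Alas2, for comparison, had 9412 in Erythroblast and 11.5 in LinNeg. No background was subtracted from the deposited intensities for these shares.

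Other probe sets of the same genes place some of these shares elsewhere. For Epb42 the second probe set gave 1.30%, and for Slc4a1 the others gave 0.814% and 3.49%. The second probe set of Epb42 had 3.42 and 4.25 in LinNeg, beside 3.11 and 3.80 in KSL. The Slc4a1 probe set with 3.49% had 2.78 and 1.49 in LinNeg, beside an other mature median of 1.74. The shares of 1.30% and 3.49% thus cannot be told from background. For Ank1 the other 3 gave 9.55% to 14.2%, and for Add2 the other 4 gave 9.77%, 12.9%, 25.3% and 34.2%. The Ank1 probe set with 13% had 3.31 and 11.3 in LinNeg, beside 9.77 and 7.22 in KSL. The Add2 probe sets with 25.3% and 34.2% stood in Erythroblast 7.57 and 8.88 times above their means in the other mature populations. For those with 9.77% and 12.9% this was 172.9 and 96.4. The second probe set of Sptb gave 53.9%, but it was dim, with 52.6 and 32.8 in Erythroblast, only 1.69 times its mean in the other mature populations, where the probe set used stood 25.7 times above it. All probe sets of Epb42 and Slc4a1 thus gave shares of at most 3.49%, while the share of Add2 ran from 8.21% to 34.2% with the probe set. Rhag, Kel and Ermap each had 1 probe set.

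**Figure D3:**
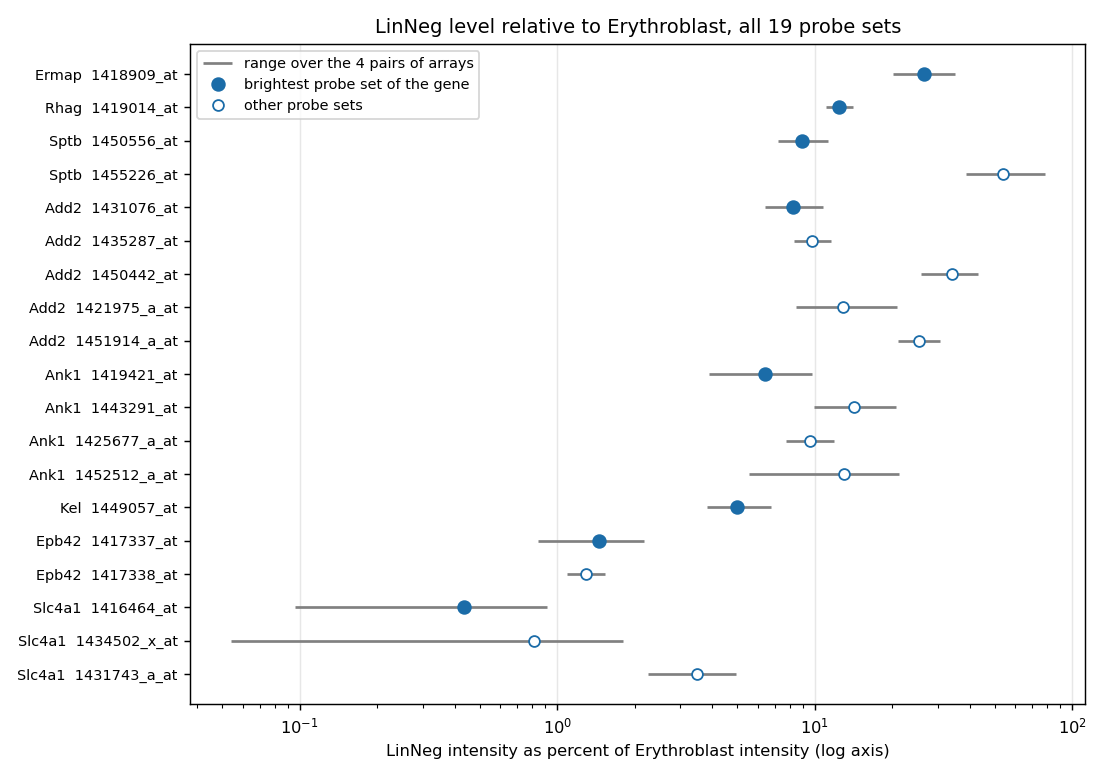
LinNeg level as a percentage of the Erythroblast level (log axis) for the 8 genes; filled points are the probe sets used, open points other probe sets of the same gene, and lines the range over the 4 pairings of arrays. Ermap is highest among the probe sets used at 26.7% and Slc4a1 lowest at 0.435%. The LinNeg level of Slc4a1 was not called above that of KSL or the other mature populations.

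Erythroblast came first in the order of population means on the log2 scale for all 8 genes, and the step to the second place was called for each. LinNeg came second for 7 of 8. It stood above the third place by a called difference for Ermap (4.95 over KSL), Rhag (3.53 over KSL), Kel (3.32 over NKT, adjusted p = 0.00025), Ank1 (2.53 over Neutrophil, adjusted p = 7.6e-05) and Epb42 (1.67 over NK, adjusted p = 0.012). For Sptb (0.73 over Monocyte, adjusted p = 0.29) and Add2 (0.79 over CD8T, adjusted p = 0.097) it did not. From the third place down no neighbours differed by a called amount for any of the 8 genes. The share of all genes with LinNeg in second place was not computed, so this order cannot be called particular to the 8 genes.

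Slc4a1 departed from that order in its means, but NK, Neutrophil and LinNeg were not called apart for it. LinNeg differed from NK by -0.66 (adjusted p = 0.58) and from Neutrophil by -0.34 (adjusted p = 0.75). NK differed from Neutrophil by 0.32 (adjusted p = 0.80). The second place of Slc4a1 was held by NK at 62.5 ± 40.3 (SD, n = 2), then Neutrophil at 48.4 ± 31.2 and LinNeg at 45.6 ± 48.0. NKT at 19.6 ± 1.35, B at 36.5 ± 49.3 and Monocyte at 8.09 ± 8.39 followed. CD8T, CD4T and KSL closed the order at 3.81 ± 1.69, 2.93 ± 0.336 and 2.84 ± 1.11. NK was called higher than KSL (2.72, adjusted p = 0.012), CD4T (2.70), CD8T (2.59) and Monocyte (2.21), and Neutrophil was called higher than KSL (2.40, adjusted p = 0.016), CD4T (2.38) and CD8T (2.27). The intensities given here are linear means, by which B would precede NKT. The replicates of B lay far apart, at 71.4 and 1.63, and Alas2 followed them with 97.1 and 1.04.

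Differences among the 7 other mature populations passed the F test for 2 of 8 genes, Rhag (adjusted p = 0.027) and Slc4a1 (adjusted p = 0.028), where 60.6% of all genes passed. For Rhag NK had 23.6 ± 7.41 (SD, n = 2), NKT 18.4 ± 9.27 and Monocyte 14.3 ± 4.25, and the other 4 were between 4.77 and 8.69. NK was called higher than B (1.43, adjusted p = 0.025), CD4T (1.39) and CD8T (1.39), at levels where all these populations are near or below the array medians. Without NK replicate 2 the F test passed for 0 of 8 genes in limma, with 1 of 8 at an unadjusted p under 0.05 (adjusted p = 0.102 for Rhag and 0.0939 for Slc4a1). Slc4a1 also missed the threshold without either CD4T array, CD8T replicate 2 or Neutrophil replicate 2 (adjusted p = 0.0568 to 0.0622), while Rhag passed without any single array other than NK replicate 2. NK replicate 2 was the highest of the 14 other mature arrays for 6 of 8 genes: Ank1, Epb42, Slc4a1, Rhag, Kel and Ermap. The share of all genes highest on that array was not computed, and Epb42, at 15.4, lay below the array's median of 23.3. NK replicate 2 also had Alas2 at 85.8 and Hemgn, a nuclear protein of red cell precursors, at 211, against 54.8 and 38.3 on NK replicate 1. The NK arrays carried summed neutrophil markers of 7929.5 and 6372 and summed monocyte and macrophage markers of 15454 and 12258. The part of other cells in the NK levels was not tested.

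The wider skeleton did not move as one. Of 10 other membrane skeleton genes tested, 6 were called higher and 3 lower in Erythroblast than in the other mature populations, with a median of 2.09 (17.6% of all genes were called higher and 28.8% lower). Dmtn, which encodes the actin-bundling protein dematin, had a mean of 4411 in Erythroblast, against 49.4 in LinNeg and 25.2 in the other mature populations, 7.12 ± 0.28 above these. Stomatin (Stom), an integral protein of the red cell membrane, was 5.18 higher, and Tmod1, which caps the slow-growing end of actin filaments, was 3.95 higher. Mpp1, the membrane protein p55, was 2.68 higher and Add1, alpha-adducin and partner of beta-adducin, 2.24 higher. Actb was not called, at -0.06.

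The 3 called lower are relatives of these proteins. Tmod3, another tropomodulin, had 24.2 in Erythroblast, against 267 in LinNeg and 533 in the other mature populations. Add3, gamma-adducin, was lower by a log2 difference of -3.91 and Tpm3, a tropomyosin, by -3.71. Among 17 paralogues used outside red cells 2 were called higher and 7 lower, against 17.6% and 28.8% of all genes. The 2 higher were Tgm2, a transglutaminase and relative of Epb42, with 1157 in Erythroblast and 406 in LinNeg, and Btn1a1, a butyrophilin and relative of Ermap, with 160.3 in Erythroblast and 17.5 in LinNeg. The beta spectrin of most other cells, Sptbn1, had 20.6 in Erythroblast, against 741 in LinNeg and 1490 in the other mature populations, a difference of -5.86 ± 0.17. Its partner alpha spectrin, Sptan1, had 17.1, against 775 and 1575 (-6.10 ± 0.21). Between Erythroblast and the other mature populations Sptb and Sptbn1, Tmod1 and Tmod3, and Add2 and Add3 thus had called differences of opposite sign. Between LinNeg and KSL Sptbn1 was called lower, with 741 in LinNeg and 1483 in KSL (-1.0004), while Sptan1 (-0.93), Tmod3 (-0.23) and Add3 (-0.22) were not called.

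Of 25 other blood group carriers and membrane transporters tested, 17 were called higher and 3 lower in Erythroblast than in the other mature populations. Among all genes tested 17.6% were called higher and 28.8% lower. The median difference of the 25 was 3.50. Rhd, the Rh protein that pairs with Rhag, had 9689.9 in Erythroblast, 717 in LinNeg and 31.6 in the other mature populations (8.03 ± 0.29 above them). Aqp1, the water channel that in humans carries Colton antigens, was 7.93 higher, and Icam4, an adhesion protein that in humans carries the LW antigens, 7.01 higher. Xk, the protein linked to Kell in human red cells, had 82.4 in Erythroblast, against 16.3 in LinNeg, and was 2.62 above the other mature populations, beside 8.42 for Kel. The 3 called lower were Slc2a1, a glucose transporter (-4.94), Cd44, a hyaluronan receptor that in humans carries Indian antigens (-3.91), and Cd99. Between LinNeg and KSL 6 of the 25 were called higher and 1 lower, against 2.45% and 3.07% of all genes. Rhd led with 717 in LinNeg and 28.5 in KSL (4.38 ± 0.38).

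Of 15 erythroid regulators, heme and hemoglobin genes tested, 13 were called higher in Erythroblast than in the other mature populations, and 13 in LinNeg than in the other mature populations, where 17.6% and 14.9% of all genes were. Between LinNeg and KSL 6 were called higher, against 2.45% of all genes. The difference of Klf1 was 3.99 beside 3.84 for Kel, and that of Alas2, 0.93, was not called (adjusted p = 0.61), as that of Slc4a1 was not.

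**Figure D4:**
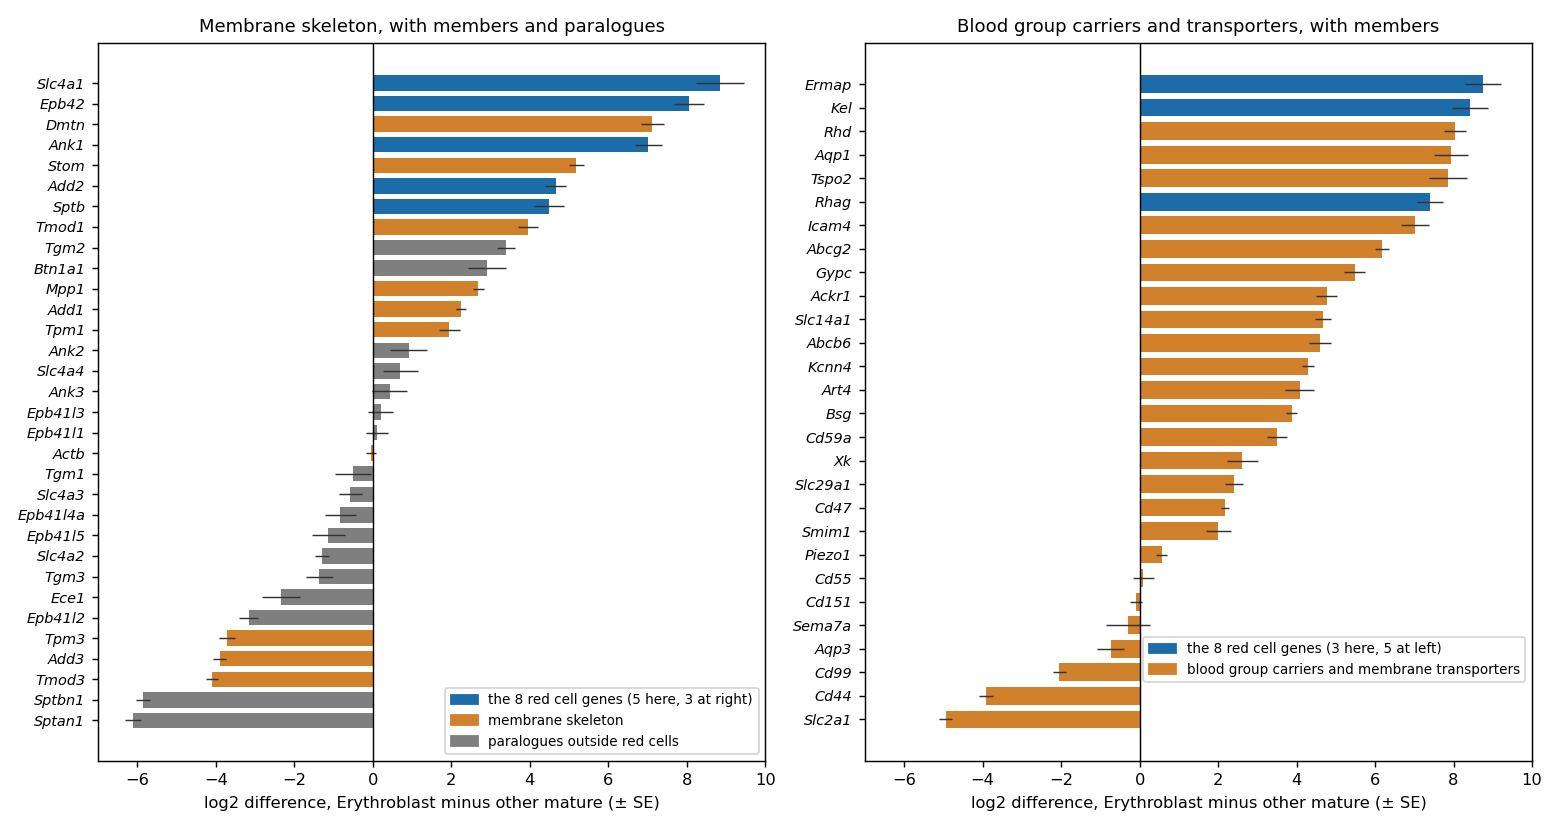
Difference of Erythroblast from the other mature populations on the log2 scale with SE, for the skeleton genes and paralogues (left) and the blood group carriers and transporters (right), with the 8 red cell genes in blue. Sptan1 at -6.10 and Sptbn1 at -5.86 are the lowest bars, and Slc4a1 at 8.84 the highest.

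Genes with the most similar pattern over the 10 population means were found for each of the 8 by Pearson correlation on the log2 scale. Erythroblast stood highest for all 8, so r over the other 9 populations is given beside r over 10 as a description. For Rhag and Ermap LinNeg lay nearer to Erythroblast (2.98 and 1.90) than to the third place (3.53 and 4.95). Sptb was most like Tmem120b (0.985, and 0.868 over 9), and Ank1 most like Rhd (0.993, and 0.985). Epb42 was most like Trim10 (0.990, and 0.941), Slc4a1 most like Alas2 (0.976, and 0.832), and Add2 most like Usp49 (0.979, and 0.800). Rhag was most like Tspan33 (0.993, and 0.979), Kel most like Plpp1 (0.992, and 0.965), and Ermap most like Reep6 (0.990, and 0.990), with Klf1 also among its 3 nearest genes (0.989, and 0.978). Between the 8 genes r over 10 populations ran from 0.755 for Slc4a1 with Ermap to 0.983 for Rhag with Ermap. Over the 9 populations without Erythroblast it ran from 0.0774 for Sptb with Slc4a1 to 0.979 for Rhag with Ermap. The value for Rhag with Ermap over 9 populations has LinNeg far above the other 8 for both genes. LinNeg also lay far above the mean of the other mature populations for Rhd (717 and 31.6) and Tspan33 (717 and 24.7). The same held for Reep6 (62.5 and 3.64) and Klf1 (1890 and 31.6). For these genes r over 9 populations thus still includes 1 distant population.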

How the data were processed

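The authors deposited an intensity on a linear scale for each probe set of each array, already brought to one scale: without its extremes every array had a mean of 100. The summarising software was not named in the labels or files. Groups and replicate numbers came from the sample titles. The small number of arrays, 2 per population, limits precision.

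Of 45101 probe sets, 64 controls, 932 with several gene symbols and 9160 with none were set aside, and symbols came from the platform annotation. From the deposited intensities log2(intensity + 6.75) was computed, where 6.75 is the 25th percentile of all values. With limma 3.58.1 in R 4.3.3, all 20 arrays entered a single fit of 10 population means (lmFit, then eBayes with trend), on the 14063 of 18193 genes above the filter. The other mature populations had equal weight. The F test compared the 7 of them. Adjusted p-values in all parts of the text come from this limma fit with Benjamini-Hochberg adjustment over all genes tested. The procedure was tested on simulated data.

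The 8 genes and all gene lists were chosen with earlier results of these data known. Named list genes were those with the largest differences in each direction plus some not called, and for each of the 8 the 3 most correlated genes were looked up, of which the first is given, with Klf1 for Ermap. Some genes of the lists were not analysed here, and counts are over those tested. Same-numbered arrays were not paired: over 45 pairs of populations their deviations correlated at -0.09 to 0.21, with 1 pair over 0.1.

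The alternatives tried were other pseudocounts, scalings, filters and probe set rules, no variance trend, only the populations compared, a replicate block, each array left out, and, chosen after seeing the data, NK left out of the other mature populations.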

Additional observations from a re-analysis of the deposited data

How the results depend on the processing

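No result changed direction while called. Erythroblast minus other mature kept 8 of 8 genes called under all 32 alternatives, and Erythroblast minus LinNeg 7 or 8 of 8 under all 31. LinNeg minus KSL gave 4 to 7 genes when 1 array was left out, and LinNeg minus other mature 6 or 7. KSL minus other mature gave 0 to 1 genes with 1 array left out and 2 with NK left out of the other mature populations, where Rhag joined (1.05, adjusted p = 0.017). The F test passed for 0 to 3 genes with 1 array left out, and for 1 with a pseudocount of 32, with the mean of all probe sets, and with NK left out. Among all genes, LinNeg minus KSL gave 309 to 823 calls with 1 array left out (309 without KSL replicate 2, 378 without LinNeg replicate 1; 777 with all arrays), and KSL minus other mature 2191 with a pseudocount of 32, against 3307. With a pseudocount of 32, Add2 lost its call in LinNeg minus KSL (0.96) and, with Sptb, in LinNeg minus other mature. With the mean of all probe sets Epb42 lost both LinNeg calls (1.15 against KSL, adjusted p = 0.065) and Sptb that against other mature (0.56). Only with the 2 populations in the fit was Sptb called in LinNeg minus KSL (adjusted p = 0.0496). Slc4a1 in LinNeg minus other mature ran from -0.29 to 1.94. The causes were not tested.

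With the replicate number as a block, 8, 8, 6, 7 and 1 genes were called in the 5 contrasts and 3 passed the F test; the numbers do not pair the samples.

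Quantile normalization moved the median of all genes from -0.19 to -0.06 in Erythroblast minus LinNeg and from -0.13 to 0.02 in Erythroblast minus other mature, where median centring gave -0.02. Under both scalings the 8 genes kept 8, 8 and 6 calls in the first 3 contrasts, and the paralogues had 6 or 7 of 17 lower in Erythroblast minus other mature. Dim levels outside Erythroblast and LinNeg lie near or below the array medians, and the files hold no detection calls.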
